A study of Arabidopsis thaliana with 18 samples.

Results

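The 10 heat shock transcription factor (HSF) genes described here were taken from the count table by their loci: HSFA1A (AT4G17750), HSFA1B (AT5G16820), HSFA1D (AT1G32330), HSFA1E (AT3G02990), HSFA2 (AT2G26150), HSFA3 (AT5G03720), HSFA7A (AT3G51910), HSFB1 (AT4G36990), HSFB2A (AT5G62020) and HSFB2B (AT4G11660). They are 10 of the 33655 genes in the table, and the Arabidopsis family holds 11 further HSF genes that were not chosen. Whole Arabidopsis seedlings were grown in continuous white light for 5 days at 22°C (the age in the labels, which the text of the study gives as older), then moved to 28°C or kept at 22°C for 24 h, and sequenced by 3′ Tag-Seq, which counts reads from transcript ends. The 6 groups of 3 libraries were pifQ at 28°C, pifQ at 22°C, hec1hec2 at 28°C, hec1hec2 at 22°C, Col-0 at 28°C and Col-0 at 22°C, and every line was in the Col-0 background. pifQ is the quadruple mutant of the PHYTOCHROME INTERACTING FACTOR genes PIF1, PIF3, PIF4 and PIF5, and hec1hec2 is the double mutant of HECATE1 (HEC1) and HECATE2 (HEC2). The study compared the lines to see how HECs and PIFs shape gene expression at high ambient temperature, the range below heat stress in which seedlings elongate.

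In some libraries the counts of a gene named in the label were not low, and 1 library stood apart. In the libraries that carry the hec1hec2 label, and are called so below by that label alone, HEC1 had 2691 to 3271 counts (28°C) and 3282 to 3308 counts (22°C), against 39 to 68 and 33 to 64 counts in Col-0, whereas HEC2 had at most 6 counts in those libraries and 3 to 14 in Col-0. In pifQ, PIF3 had 1 to 6 counts and PIF5 3 to 12 counts, against 56 to 83 and 170 to 553 counts in Col-0, as their label states. PIF1 had 90 to 97 counts (28°C) and 66 to 69 counts (22°C) in pifQ, against 59 to 71 and 42 to 53 counts in Col-0. PIF4 had 404 to 523 and 60 to 109 counts in pifQ, against 281 to 403 and 59 to 76 counts in Col-0. Neither was lower in pifQ. The counts of HEC1, PIF1 and PIF4 do not check the labels, since a 3′ tag can lie outside the altered part of a gene. Why HEC1 was higher under the hec1hec2 label was not tested. In pifQ 22°C replicate 2, genes of chromosome 1 took 41.2% and genes of chromosome 5 took 10.1% of all counts, against 29.1 to 30.1% and 19.3 to 20.6% in the other 17 libraries. This library entered the shared estimate of the spread in every test, so values without it are given where it matters, also for other genotypes. Library totals ranged between 3631558 and 6285632 counts (median 4599322), of which the 10 HSF genes together took 447 to 884 counts (median 663). Summed markers of green tissue ranged between 24070 and 31830 CPM (counts scaled to an equal library size) at 28°C and between 36230 and 51240 CPM at 22°C, and root markers between 2713 and 3921 CPM over all groups. The 51240 CPM was the sum of pifQ 22°C replicate 2, and the green tissue markers RBCS1A and LHCB1.3 are genes of chromosome 1. The median of pifQ at 22°C was 38550 CPM, and the highest sum in other groups was 46980 CPM, in hec1hec2 at 22°C. Flower markers at 28°C summed to 12.2 to 15.01 CPM in pifQ, 2.01 to 3.83 CPM in hec1hec2 and 4.32 to 11.3 CPM in Col-0, and to 0.778 to 2.33 CPM over all groups at 22°C, and seed storage markers to 4.31 to 23.3 CPM at 28°C and 0 to 1.56 CPM at 22°C. Of these 12 marker genes, at most 2 in a list were at 0 counts in a whole group, and no green tissue or root marker was. The genes of a list did not all move alike. Of the green tissue markers in Col-0, RBCS1A averaged 12260 CPM at 28°C against 22290 CPM at 22°C. RCA averaged 5072 against 6280 CPM and LHCB1.3 8530 against 8524 CPM. At 28°C the highest seed storage mean was that of CRA1 in every genotype, and the highest flower mean that of PI. The part of these differences in the HSF results was not tested, and in whole seedlings a change in the number of cells of a type and a change in RNA per cell cannot be told apart.

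HSFs are the DNA-binding regulators of the heat shock response: they bind heat shock elements, which are inverted repeats of the unit nGAAn, in the promoters of chaperone genes. Class A members carry an activation domain, and the HSFA1 group is known as the set of master activators that chaperones hold in check until unfolded protein appears. HSFA2, HSFA3 and HSFA7A are class A factors that act downstream of the HSFA1 group in heat, and class B members lack the activation domain, HSFB1 and HSFB2B being known repressors of other HSF genes.

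Because HSF genes are themselves targets of HSFs, the heat shock elements of their promoters are shown first. Promoters were taken as 250 bases before to 50 bases after each annotated start in the RefSeq annotation of TAIR10.1, and all 10 genes matched by locus. The letters searched were GAANNTTC and TTCNNGAA. Each is its own reverse complement, so both strands were covered, and the motifs may overlap each other. HSFA7A held 4 matches, HSFA2 held 4, HSFA1E and HSFB1 held 1 each, and HSFA1A, HSFA1B, HSFA1D, HSFA3, HSFB2A and HSFB2B held none in this window. Of all 27443 promoters, 19.3% held at least 1 match. A run of 3 alternating units, the longer form of the element, was present in HSFA7A and HSFA2 and in 0.481% of all promoters. The 3 stretches below are shown because HSFA7A and HSFA2 hold this longer form while HSFA1E holds the short form, and capitals mark the matched units (for HSFA2, 3 of its 4 matches lie in the stretch shown).
HSFA7A, chr3:19264934-19265026, plus strand, TAIR10.1: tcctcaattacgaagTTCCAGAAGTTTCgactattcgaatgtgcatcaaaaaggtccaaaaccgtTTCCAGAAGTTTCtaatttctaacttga
HSFA2, chr2:11135521-11135613, plus strand, TAIR10.1: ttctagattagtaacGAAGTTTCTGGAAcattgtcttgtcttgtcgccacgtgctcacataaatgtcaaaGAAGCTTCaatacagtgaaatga
HSFA1E, chr3:673369-673406, plus strand, TAIR10.1: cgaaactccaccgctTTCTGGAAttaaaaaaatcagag
The HSFA7A stretch carries the same 13-base run, TTCCAGAAGTTTC, 2 times, with starts 50 bases apart. Of the 27443 promoters, 2 held a run of 3 units in such repeated form, HSFA7A included. A match is a description of letters and not a mapped binding site.

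The 10 genes spanned a wide range of levels. Counts from transcript ends do not scale with transcript length, so CPM values were set side by side without a length correction. Other differences between genes in how tags are captured and assigned were not examined, so the order is one of tag counts. HSFA7A had the highest mean over the 18 libraries, 42.4 CPM, followed by HSFB1 at 35.7 CPM, which encodes a class B repressor. In Col-0 HSFA7A averaged 40.3 ± 6.56 CPM at 28°C and 39.2 ± 4.11 CPM at 22°C. HSFB1 averaged 38.1 ± 2.51 and 36.2 ± 3.61 CPM there (SD, n = 3 each), a difference within the SD of HSFA7A at both temperatures. This order turned in hec1hec2, where HSFA7A averaged 38.97 ± 1.46 CPM at 28°C and 25.8 ± 3.40 CPM at 22°C and HSFB1 40.5 ± 7.42 and 37.7 ± 3.10 CPM (SD, n = 3 each), a difference within the SD of HSFB1 at 28°C. HSFA1B (13.5 CPM), HSFA1D (11.9 CPM), HSFB2A (11.5 CPM), HSFB2B (8.57 CPM) and HSFA3 (7.08 CPM) formed a middle range. HSFA1A (3.92 CPM) and HSFA1E (2.92 CPM) were low, and HSFA2 was lowest at 0.892 CPM. Neighbours in this order overlapped in their ranges over the libraries, except HSFB1, at 22.1 to 45.6 CPM, and HSFA1B, at 6.49 to 20.9 CPM. The filter on low counts kept 18078 genes, among them 9 of the 10 HSF genes, and in the order of mean levels over those genes HSFA7A stood at percentile 78.4 and HSFA1E at percentile 10.1. HSFA2, a heat-induced activator that prolongs acquired heat tolerance, had 1 to 9 counts a library and 74 in all, failed the filter and was not tested.

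**Figure D1:**
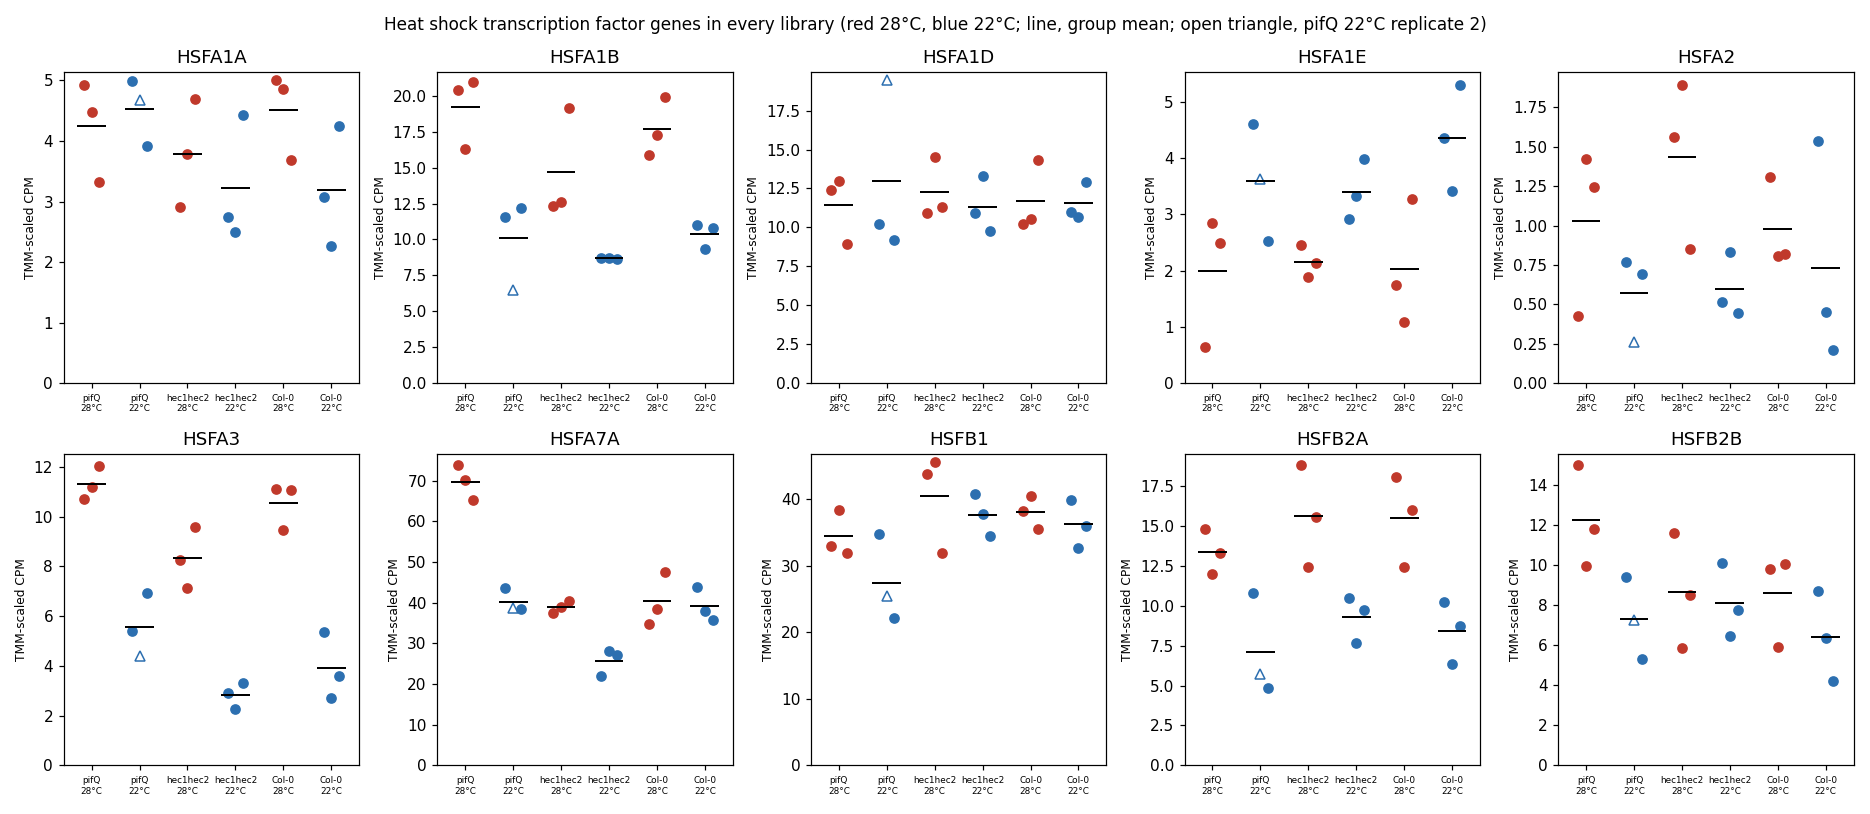
Level of each of the 10 HSF genes in all 18 libraries, in CPM scaled by the trimmed mean of M values (TMM), with 1 panel a gene, y axes starting at 0 and differing between panels, and the groups along the x axis. Dots are libraries, lines are means of 3, and the open triangle is pifQ 22°C replicate 2. HSFA3 was higher at 28°C in all 3 genotypes and HSFA7A reached 65.3 to 74.0 CPM in pifQ at 28°C, above every other library.

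The first question was which HSF genes responded to 28°C in wild type. In Col-0, 3 of the 9 tested HSF genes rose and none fell at a false discovery rate (FDR) of at most 0.05 (edgeR's quasi-likelihood test, Benjamini-Hochberg adjustment over the 18078 tested genes). Of all tested genes, 26% passed the FDR in this comparison, 13.2% passed it and were higher and 12.8% passed it and were lower. Without pifQ 22°C replicate 2 the share was 33.7%, the same 3 HSF genes rose and HSFA1E fell. HSFA3 was the 1 HSF gene that also passed a 2-fold threshold, which 7.94% of all tested genes did.  Over the 9 HSF genes the median change in Col-0 was 0.46 on the log2 scale, beside 0.04 over all tested genes.

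HSFA3 encodes a class A factor that is known as a direct target of the drought- and heat-responsive activator DREB2A. The gene lies at chr5:971142-974326 on the minus strand and has 2 or 3 exons by transcript. In pifQ it had 10.7, 11.2 and 12.02 CPM at 28°C, against 5.38, 4.41 and 6.92 CPM at 22°C. These groups did not overlap, and the log2 fold change was 1.01 (SE 0.227, FDR 0.00148). In the libraries labelled hec1hec2 it had 8.27, 7.14 and 9.58 CPM at 28°C, against 2.91, 2.29 and 3.32 CPM at 22°C, again without overlap, and the log2 fold change was 1.55 (SE 0.259, FDR 5.36e-05). It had 11.1, 9.45 and 11.1 CPM in Col-0 at 28°C, against 5.38, 2.73 and 3.60 CPM in Col-0 at 22°C. The lowest 28°C library of Col-0 was well above its highest 22°C library, and the log2 fold change was 1.45 (SE 0.247, FDR 8.67e-05). HSFA3 thus passed the FDR and the 2-fold threshold in each genotype, and its FDR stayed at or below 0.0215 in each of the 24 alternative analyses per genotype. In pifQ the 2-fold threshold was lost without pifQ 22°C replicate 2 (log2 fold change 0.89, FDR 0.00589), in which 100 neighbouring genes of HSFA3 stood at 79.4% of their level in the other libraries, without pifQ 22°C replicate 1 (0.98) and without pifQ 28°C replicate 3 (0.97). An annotated gene on the opposite strand, AT5G03710, overlaps 486 bases of HSFA3 and had at most 1 count. Whether the counting used strand is not given, so how reads in that overlap were assigned is not known.

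HSFA1B, at chr5:5530195-5532889 on the plus strand with 3 exons, encodes a factor that belongs to the master activator group. In pifQ it had 20.4, 16.3 and 20.9 CPM at 28°C, against 11.5, 6.49 and 12.2 CPM at 22°C. In the libraries labelled hec1hec2 it had 12.3, 12.6 and 19.2 CPM at 28°C, against 8.73, 8.72 and 8.64 CPM at 22°C. In Col-0 it had 15.9, 17.3 and 19.9 CPM at 28°C, against 11.01, 9.32 and 10.8 CPM at 22°C. Every 28°C library was above every 22°C library of its genotype. HSFA1B rose by a log2 fold change of 0.91 (SE 0.209, FDR 0.00187) in pifQ, 0.76 (SE 0.216, FDR 0.00973) in the libraries labelled hec1hec2 and 0.77 (SE 0.213, FDR 0.00867) in Col-0. Single libraries decided 2 of these calls: the FDR was 0.11 in hec1hec2 without hec1hec2 28°C replicate 3, and 0.0538 in Col-0 without Col-0 28°C replicate 3. In pifQ 22°C replicate 2, the library with the lowest HSFA1B value, 100 neighbouring genes stood at 50.3% of their level elsewhere, and without that library the log2 fold change in pifQ was 0.69 (FDR 0.00725). The end of HSFA1B overlaps 44 bases of AT5G16830 on the opposite strand, which had 27 to 96 counts and a log2 fold change of 0.46 (FDR 0.123) in pifQ, 0.48 (FDR 0.096) in hec1hec2 and 0.60 (FDR 0.0465) in Col-0. Whether the counting used strand is not given in the sources used here, so reads of the 2 genes in that overlap cannot be told apart.

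HSFB2A, at chr5:24915807-24917643 on the plus strand with 2 exons, encodes a class B factor. In pifQ it had 14.8, 11.99 and 13.3 CPM at 28°C, against 10.8, 5.71 and 4.84 CPM at 22°C. In the libraries labelled hec1hec2 it had 18.8, 12.4 and 15.5 CPM at 28°C, against 10.4, 7.69 and 9.74 CPM at 22°C. In Col-0 it had 18.1, 12.4 and 16.0 CPM at 28°C, against 10.2, 6.36 and 8.69 CPM at 22°C. No 28°C library fell below a 22°C library of its genotype. HSFB2A rose by a log2 fold change of 0.87 (SE 0.254, FDR 0.0118) in pifQ, 0.74 (SE 0.238, FDR 0.0212) in the libraries labelled hec1hec2 and 0.89 (SE 0.248, FDR 0.00922) in Col-0. Each of its calls was lost in some alternatives. The FDR in pifQ was 0.068 without 22°C replicate 3 and 0.0796 in a model of the 6 pifQ libraries alone. In hec1hec2 it was 0.0978 without 22°C replicate 2, 0.121 without 28°C replicate 1 and 0.0527 without 28°C replicate 3. In Col-0 it was 0.0653 without 22°C replicate 2 and 0.0502 without 28°C replicate 1. Neighbouring genes of HSFB2A stood at 49.3% of their usual level in pifQ 22°C replicate 2, and without that library the log2 fold change in pifQ was 0.74 (FDR 0.0305).

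HSFA7A, at chr3:19265141-19266806 on the plus strand with 2 exons, is a heat-inducible class A factor and gave the clearest differences between genotypes. It had 74.0, 70.1 and 65.3 CPM in pifQ at 28°C, against 43.6, 38.7 and 38.5 CPM in pifQ at 22°C. In the libraries labelled hec1hec2 it had 37.6, 38.9 and 40.5 CPM at 28°C, against 21.9, 28.3 and 27.2 CPM at 22°C. In Col-0 it had 34.8, 38.6 and 47.6 CPM at 28°C, against 43.8, 37.9 and 35.8 CPM at 22°C. The temperatures were thus apart in pifQ and in the libraries labelled hec1hec2 and overlapped in Col-0. On the log2 scale HSFA7A rose by 0.79 (SE 0.136, FDR 9.12e-05) in pifQ and by 0.60 (SE 0.143, FDR 0.00234) in the libraries labelled hec1hec2, whereas its change was 0.05 (SE 0.141, FDR 0.842) in Col-0. Both calls held in each of the 24 alternatives, with FDRs of at most 0.00827 and 0.0255. In pifQ 22°C replicate 2 the 100 neighbours of HSFA7A stood at 96.2% of their level elsewhere, slightly below the 97.8 to 103% of the other 17 libraries. Without that library the log2 fold change in pifQ was 0.76 (FDR 4.44e-05).

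With HSFA3, HSFA1B, HSFB2A and HSFA7A, 4 of the 9 tested HSF genes rose and none fell in the libraries labelled hec1hec2, where 29.2% of all tested genes passed the FDR, 14.9% passed it and were higher, 14.3% passed it and were lower, and 8.93% also passed 2-fold. The same 4 genes rose and none fell in pifQ, where the shares of all tested genes were 27.4% past the FDR, 13.1% higher, 14.3% lower and 7.82% past 2-fold as well. Without pifQ 22°C replicate 2 the same 4 genes rose in pifQ and in the libraries labelled hec1hec2 and none fell. DESeq2 called the same HSF genes in each genotype. The medians over the 9 genes were 0.25 in hec1hec2 and 0.72 in pifQ on the log2 scale, beside 0.05 and 0.00 over all tested genes, and without pifQ 22°C replicate 2 the median in pifQ was 0.69.

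**Figure D2:**
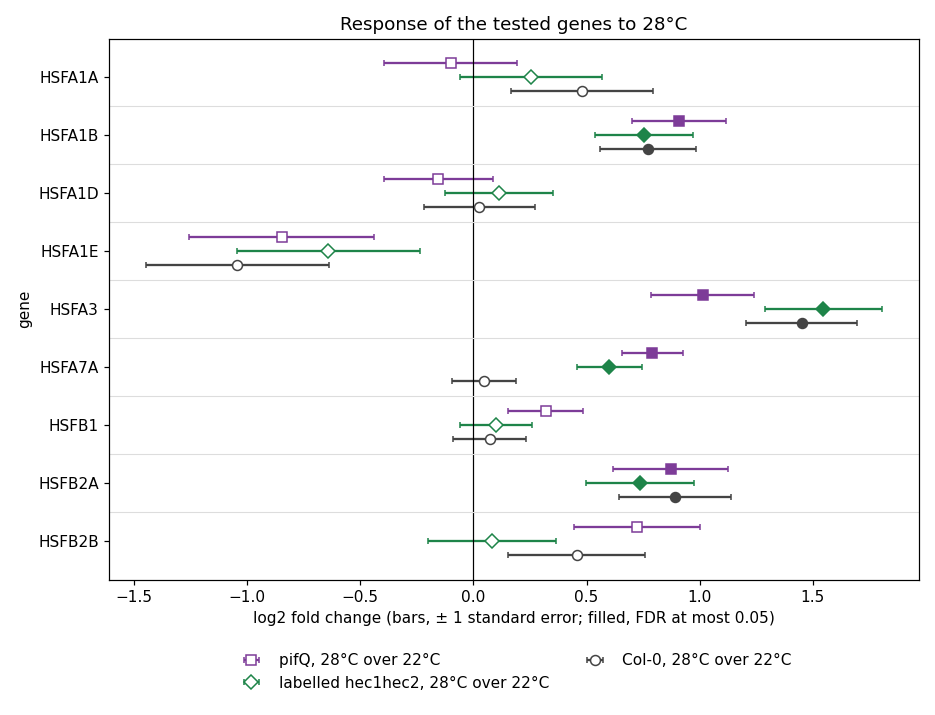
Log2 fold change, 28°C over 22°C, of the 9 tested HSF genes in pifQ (squares), the libraries labelled hec1hec2 (diamonds) and Col-0 (circles). Bars are ± 1 SE and filled symbols passed an FDR of 0.05. HSFA1B, HSFA3 and HSFB2A are filled in all 3 genotypes, HSFA7A in pifQ and hec1hec2, and no symbol left of 0 is filled.

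Of the master activator group, HSFA1A, HSFA1D and HSFA1E did not pass the FDR in any genotype. HSFA1E (chr3:673428-676428, plus strand) was the 1 HSF gene with lower means at 28°C in every genotype. It had 0.643, 2.85 and 2.49 CPM in pifQ at 28°C, against 4.61, 3.63 and 2.54 CPM at 22°C. In hec1hec2 it had 2.46, 1.89 and 2.13 CPM at 28°C, against 2.91, 3.32 and 3.99 CPM at 22°C, and in Col-0 it had 1.74, 1.08 and 3.28 CPM at 28°C, against 4.35, 3.41 and 5.30 CPM at 22°C. The temperatures were apart in hec1hec2 and Col-0, by a small margin, and overlapped in pifQ. The log2 fold changes were −0.85 (SE 0.41, FDR 0.128) in pifQ, −0.64 (SE 0.405, FDR 0.25) in hec1hec2 and −1.04 (SE 0.403, FDR 0.0579) in Col-0. The value for Col-0 crossed the FDR threshold in 5 of 24 alternatives, with an FDR of 0.0228 without Col-0 28°C replicate 3 (log2 fold change −1.58), 0.0438 without pifQ 22°C replicate 2, 0.0318 without pifQ 28°C replicate 1, 0.0402 with no filter and 0.0268 in a model of the 6 Col-0 libraries. These values rest on 3 to 25 counts a library.

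HSFA1D (chr1:11656964-11660471, minus strand) varied little, between 8.91 and 14.5 CPM in 17 libraries, and stood at 19.5 CPM in pifQ 22°C replicate 2. In that library its 100 neighbours stood at 164% of their level in the others. Its log2 fold change was −0.15 (SE 0.241, FDR 0.674) in pifQ, and 0.23 (FDR 0.476) without that library. In hec1hec2 it was 0.11 (SE 0.239, FDR 0.762) and in Col-0 0.03 (SE 0.246, FDR 0.956). HSFA1A (chr4:9869818-9871646, minus strand), with 10 to 26 counts a library, had log2 fold changes of −0.10 (SE 0.294, FDR 0.834) in pifQ, 0.25 (SE 0.313, FDR 0.582) in hec1hec2 and 0.48 (SE 0.315, FDR 0.285) in Col-0. The HSFA1A libraries of both temperatures overlapped in every genotype.

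Among the class B repressors, HSFB1 (chr4:17440177-17442151, plus strand) was abundant and changed little. It had 33.0, 38.4 and 31.9 CPM in pifQ at 28°C, against 34.8, 25.4 and 22.1 CPM at 22°C, and between 31.95 and 45.6 CPM in the other 12 libraries. Its log2 fold changes were 0.32 (SE 0.166, FDR 0.159) in pifQ, 0.10 (SE 0.159, FDR 0.682) in hec1hec2 and 0.07 (SE 0.163, FDR 0.789) in Col-0. The value in pifQ was 0.54 (FDR 0.0221) without pifQ 22°C replicate 1 and 0.26 (FDR 0.256) without replicate 2. HSFB2B (chr4:7042354-7044708, plus strand) had 15.01, 9.96 and 11.8 CPM in pifQ at 28°C, against 9.42, 7.26 and 5.30 CPM at 22°C. These libraries did not overlap, yet the log2 fold change of 0.72 (SE 0.279, FDR 0.0559) missed the threshold. It passed in 5 of 24 alternatives, among them the removal of pifQ 22°C replicate 1 (0.97, FDR 0.026), and was 0.71 (FDR 0.0694) without replicate 2. In hec1hec2 and Col-0 HSFB2B was 0.08 (SE 0.284, FDR 0.863) and 0.46 (SE 0.303, FDR 0.291). HSFB2B overlaps 308 bases of AT4G11670 on the opposite strand, which had 13 to 33 counts and passed the FDR in no genotype. It also overlaps 352 bases of AT4G05910 on that strand, which had 0 counts. As for HSFA1B, the strand setting is not given, so reads in these overlaps cannot be told apart.

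HSFA2 had 2, 7 and 6 counts in pifQ at 28°C, against 4, 1 and 3 counts at 22°C. In hec1hec2 it had 7, 9 and 4 counts at 28°C, against 3, 4 and 2 counts at 22°C, and in Col-0 6, 3 and 4 counts at 28°C, against 6, 2 and 1 counts at 22°C. The temperatures overlapped in pifQ and Col-0 and touched in hec1hec2. In pifQ 22°C replicate 2, which had 1 count, 100 neighbouring genes of HSFA2 stood at 130% of their level elsewhere. In the other 17 libraries they stood at 92.8 to 105%. A change in HSFA2 was not detectable at this depth.

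The next question was whether the response to 28°C differed between genotypes. No HSF gene passed the FDR for the interaction of temperature with pifQ or with hec1hec2 relative to Col-0 (edgeR's quasi-likelihood test), and none did with DESeq2. Over all tested genes 0.0608% and 0.0166% passed, and without pifQ 22°C replicate 2 the shares were 0.158% and 0.207%, again with no HSF gene. Over single left-out libraries the shares ran between 0.0109% (without pifQ 28°C replicate 1) and 0.169% (without pifQ 22°C replicate 1) for pifQ, and 0.0163% was the lowest for hec1hec2. The 1 HSF gene with an unadjusted p below 0.05 in each interaction was HSFA7A. Its response was larger in pifQ than in Col-0 by 0.74 on the log2 scale (SE 0.195, FDR 0.214), and the FDR ran between 0.0686 and 0.55 over 24 alternatives. It was larger in the libraries labelled hec1hec2 than in Col-0 by 0.55 (SE 0.201, FDR 1). The rise of HSFA7A in pifQ and in the libraries labelled hec1hec2 and its value near 0 in Col-0 are therefore not shown to differ by the test of the difference.

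Genotypes were then compared at each temperature. At 28°C, 1 of 9 HSF genes differed between pifQ and Col-0, beside 1.47% of all tested genes (4.08% without pifQ 22°C replicate 2 and 0.752% without pifQ 28°C replicate 1). This was HSFA7A, which stood above Col-0 in pifQ (log2 fold change 0.79, SE 0.136, FDR 0.00123), with 65.3 to 74.0 CPM in pifQ against 34.8 to 47.6 CPM in Col-0. The call held in each of 24 alternatives, with an FDR of at most 0.022. Of the flower markers, PI alone was likewise higher in pifQ at 28°C (12.2 to 15.01 CPM) than in Col-0 (4.05 to 11.3 CPM). AP3 stood at 0 CPM in pifQ and at 0 to 0.435 CPM in Col-0, and AP1 at 0 CPM in both. The part of PI in the HSFA7A result was not tested. At 22°C no HSF gene differed between pifQ and Col-0 (1 had an unadjusted p below 0.05, and none passed with DESeq2), beside 0.0553% of all tested genes (1.21% without pifQ 22°C replicate 1 and 0.0272% without Col-0 22°C replicate 2). The lowest FDR belonged to HSFB1 (−0.39, FDR 0.41), which was −0.33 (FDR 0.672) without pifQ 22°C replicate 2. HSFA7A was 0.04 (FDR 0.925) at 22°C.

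Between the libraries labelled hec1hec2 and Col-0 at 22°C, 1 of 9 HSF genes differed, beside 1.7% of all tested genes (3.52% without pifQ 22°C replicate 2 and 0.707% without Col-0 22°C replicate 1). HSFA7A was lower in hec1hec2, with 21.9 to 28.3 CPM against 35.8 to 43.8 CPM in Col-0 and a log2 fold change of −0.60 (SE 0.144, FDR 0.0268). Single libraries decided this call: the FDR was 0.184 without Col-0 22°C replicate 1, 0.0671 without Col-0 22°C replicate 2, 0.187 without hec1hec2 22°C replicate 1 and 0.0695 without hec1hec2 22°C replicate 3, with log2 fold changes of −0.65 to −0.49. At 28°C no HSF gene differed between hec1hec2 and Col-0 (none had an unadjusted p below 0.05 and none passed with DESeq2), beside 1.44% of all tested genes (3.83% without pifQ 22°C replicate 2 and 0.475% without Col-0 28°C replicate 3). The lowest FDR was that of HSFA3 (−0.34, FDR 0.606), and HSFA7A stood at −0.05 (FDR 0.942).

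**Figure D3:**
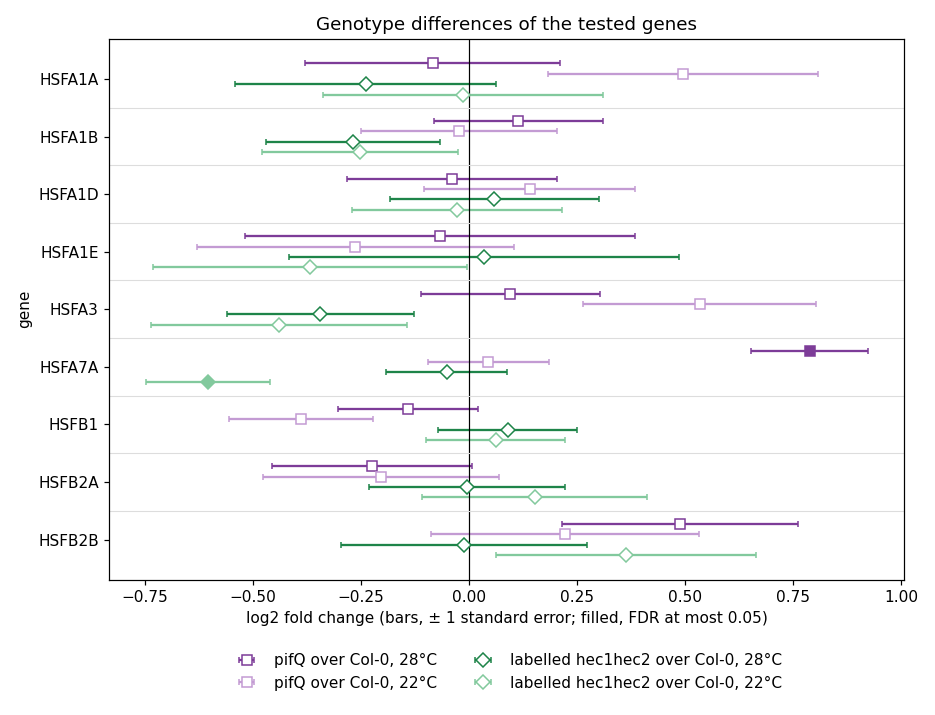
Log2 fold change of the 9 tested HSF genes, pifQ over Col-0 (squares) and the libraries labelled hec1hec2 over Col-0 (diamonds), at 28°C (dark) and 22°C (light). Bars are ± 1 SE and filled symbols passed an FDR of 0.05. The filled symbols are HSFA7A in pifQ at 28°C (0.79) and HSFA7A in hec1hec2 at 22°C (−0.60).

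The other genes of the heat shock pathway place these values. Of the 11 remaining HSF genes, 8 were tested, and HSFA9, a seed factor, had 0 counts in all 18 libraries. None rose and 1 fell in pifQ, 1 rose and none fell in hec1hec2, and none rose and 1 fell in Col-0. HSFC1, of the third HSF class, fell to 5.67 to 7.83 CPM in Col-0 at 28°C, against 11.5 to 13.4 CPM at 22°C (log2 fold change −0.80, FDR 0.00823), and its log2 fold change was −0.93 (FDR 0.0028) in pifQ. HSFA8 rose in hec1hec2 (1.33, FDR 0.00121). With 8 genes, a count of 1 is near the share of all tested genes given above. Medians of the list were 0.20, 0.13 and 0.17 in pifQ, hec1hec2 and Col-0, and 0.08 in pifQ without pifQ 22°C replicate 2, with the same counts.

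Chaperone genes, the classical targets of HSFs, held genes that rose and genes that fell. Of 18 tested of 22 listed, 7 rose and 3 fell in pifQ, 6 rose and 3 fell in hec1hec2, and 6 rose and 3 fell in Col-0. Beside these stand 13.1, 14.9 and 13.2% of all tested genes that rose and 14.3, 14.3 and 12.8% that fell, to which the 3 that fell are near. Without pifQ 22°C replicate 2, of 20 then tested, 9 rose and 5 fell in pifQ, 6 and 4 in hec1hec2, and 8 and 4 in Col-0. The 4 with the largest change in Col-0 were HSP17.4, HSP90.1, HSP17.6II and HSP70-4. HSP90.1, a heat-inducible cytosolic chaperone, had 45.3 to 56.6 CPM in Col-0 at 28°C, against 5.72 to 8.41 CPM at 22°C (log2 fold change 2.80, FDR 5.65e-10). HSP70-4, a heat-inducible member of the HSP70 family, had 88.0 to 132 CPM at 28°C, against 18.4 to 26.1 CPM at 22°C (2.40, FDR 1.9e-10). The small chaperone genes HSP17.4 (2.83, FDR 0.000201) and HSP17.6II (2.74, FDR 0.0116) stayed low, at 22 to 34 and 7 to 20 counts at 28°C against 1 to 9 and 0 to 3 counts at 22°C in Col-0. The genes that fell in Col-0 were the constitutively expressed chaperones HSC70-3 (−1.18), HSP90.2 (−0.82) and HSC70-1 (−0.62), which were named after their values were seen. Since HSC70-1 alone averaged 1016 ± 54.9 CPM at 28°C and 1560 ± 32.7 CPM at 22°C in Col-0 (SD, n = 3 each), the summed level of the list was lower at 28°C, at 1593 to 1784 CPM against 2314 to 2459 CPM.

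The list of HSF regulators and targets that are not chaperones moved upward. Of 10 tested of 11 listed, 7 rose in pifQ, 6 in hec1hec2 and 6 in Col-0, and none fell, except 1 in Col-0 without pifQ 22°C replicate 2. The shares of all tested genes that rose were 13.1, 14.9 and 13.2%. HSBP, ROF1 and FES1A, named after their values were seen, passed the FDR in no genotype in the model of all libraries. GOLS1, which encodes a galactinol synthase and is an HSF target, had 27.0 to 32.6 CPM in Col-0 at 28°C, against 2.12 to 3.07 CPM at 22°C (log2 fold change 3.60, FDR 2.52e-11). HOP3, a co-chaperone gene (2.95, FDR 7.02e-10), ROF2, which encodes an immunophilin that acts on HSFA2 (2.78, FDR 5.58e-09), and MBF1C, a transcriptional coactivator gene of the heat response (2.18, FDR 7.02e-10), followed. DREB2A, named after its values were seen because it acts on HSFA3, had log2 fold changes of 2.44 (FDR 3.37e-08) in pifQ, 1.61 (FDR 5.13e-06) in hec1hec2 and 1.10 (FDR 0.000656) in Col-0. DREB2A is a gene of chromosome 5, which took 10.1% of the counts in pifQ 22°C replicate 2. It had 7 to 19 counts in pifQ at 22°C, and its change without that library is not given here. Its larger change in pifQ than in Col-0 did not pass the FDR for the interaction (1.34, SE 0.338, FDR 0.19). The medians of this list were 2.04, 1.66 and 1.38 in pifQ, hec1hec2 and Col-0, whereas those of the chaperone list were 0.59, 0.61 and 0.56. Without pifQ 22°C replicate 2 they were 1.83 and 0.83 in pifQ. In the promoter window, 7 of the 11 regulators and targets, 10 of the 22 chaperone genes and 3 of the 11 other HSF genes held at least 1 element match, beside 4 of the 10 HSF genes described here. Over all promoters the share was 19.3%.

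**Figure D4:**
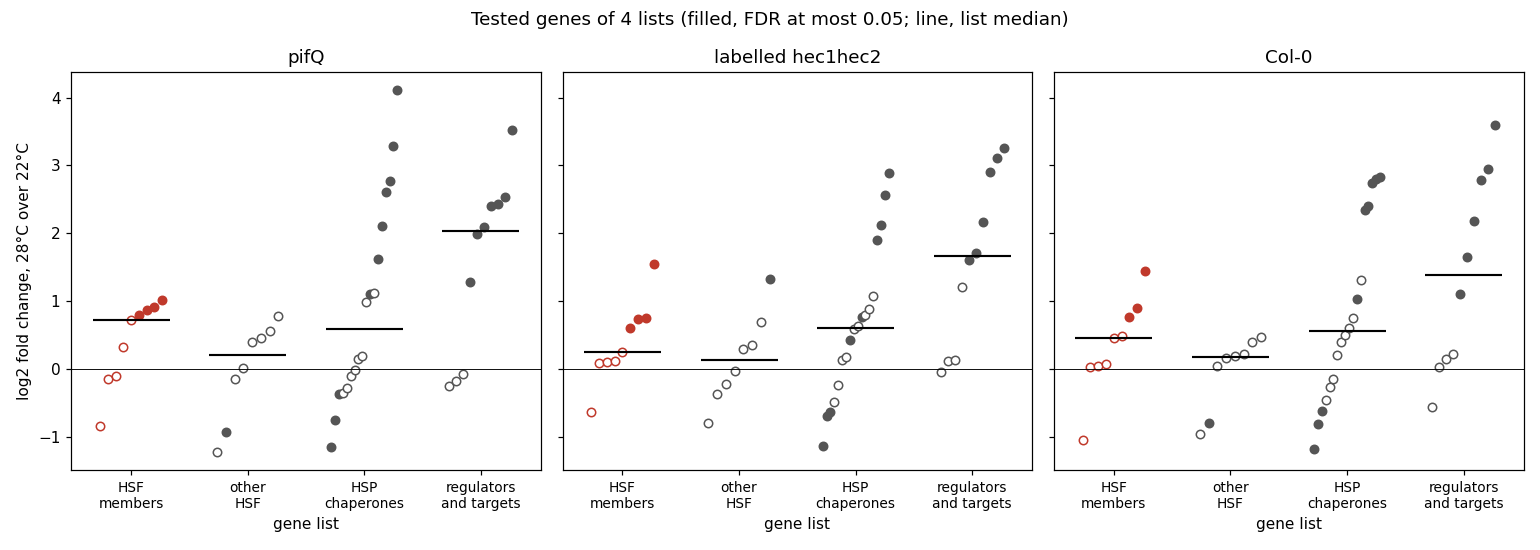
Log2 fold change, 28°C over 22°C, of every tested gene in 4 lists, in pifQ (left), the libraries labelled hec1hec2 (centre) and Col-0 (right). Each dot is a gene, filled dots passed an FDR of 0.05 and lines are list medians. In Col-0 the HSF genes (red, median 0.46) lie between −1.04 and 1.45, whereas GOLS1, among the regulators and targets, reached 3.60.

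HSFA1B and HSFA3 had the most similar patterns among the 4 HSF genes that responded. Over the 17 libraries without pifQ 22°C replicate 2, their TMM log2 CPM values correlated with Pearson's r = 0.929. As a description, the 3 tested genes most like HSFA3 were AT4G17370 (r = 0.972), SYP23 (0.958) and AT1G35516 (0.956), and those most like HSFA1B were INT1 (0.961), CYL1 (0.959) and AT3G25150 (0.956). HSFA7A was closest to AT3G15630 (0.945), CKB2 (0.945) and IGMT4 (0.933), and HSFB2A to AT5G10695 (0.939), AT4G35840 (0.924) and RALF23 (0.923). All points share the temperature groups and the libraries, and these genes were picked as the highest of 18078.

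No 2 of the 10 genes shared a run longer than 14 bases in the last 500 bases of their transcripts, where the tags lie. The predicted proteins ran from 272 residues (HSFA7A) to 495 residues (HSFA1A), and identity over aligned residues was 29.4 to 69.2% across the 45 pairs. HSFA1B and HSFA1E were the closest pair at 69.2%. Within this pair HSFA1B rose at 28°C in every genotype and HSFA1E had lower means in every genotype. The class B pair HSFB2A and HSFB2B had 53.1% identity. HSFB2A passed the FDR in every genotype and HSFB2B in none, though HSFB2B passed it in pifQ in 5 of 24 alternatives. In pifQ their log2 fold changes were close, at 0.87 (SE 0.254) and 0.72 (SE 0.279). A difference between the responses of these genes was not tested.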

How the data were processed

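The authors checked reads with FastQC, aligned them with TopHat and Bowtie2 and deposited raw counts per gene from HTSeq with the TAIR10 annotation. Their versions and the strand setting are not given in the sources used here. Libraries were assigned to groups from the labels, and no column of the table was left over (0). Of the 33655 genes, 18078 passed edgeR's filterByExpr by group, and edgeR 4.0.16 in R 4.3.3 (with limma 3.58.1) fitted 1 quasi-likelihood model of 6 groups to all 18 libraries with TMM normalization. The FDR is the Benjamini-Hochberg adjusted p over all tested genes, with a threshold of 0.05 and, where named, a 2-fold change. CPM are counts per library of equal TMM-scaled size. SE is the size of the change over the root of F. The common dispersion was 0.0164. Alternatives were DESeq2 1.42.0, RLE normalization, 1 CPM in 3 libraries or no filter, the replicate number as a block, the compared libraries alone, and each library left out. Replicates are described as biological, and p-values measure the spread between these libraries.

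The HSF genes and lists were chosen with earlier results of these data known. All 10 members are named. For interactions and genotype contrasts, statistics are given for members past the FDR or else the lowest FDR. Of each other list at most 4 genes are named, those past the FDR in Col-0 with the largest change, and exceptions are stated. No list was tested as a whole. Replicate pairs differed by more than sampling noise (a chi-square per gene of 1.88 or more), so each library counted once. Same-numbered libraries deviated together in 2 of 21 pairings at a correlation over 0.1 (−0.0409 to 0.18), so the numbers were not taken as pairs. The labels describe no molecular identifiers. The edgeR fit was tested on simulated data. Sequences, positions and overlaps come from RefSeq's TAIR10.1 by locus, not from the count table, with Python 3.11.15 and Biopython 1.88. Figures were drawn with matplotlib 3.10.9.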

Additional observations from a re-analysis of the deposited data

How the results depend on the processing

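Of 840 alternative values for single HSF genes, 798 kept their direction and side of the FDR threshold, 13 lost the call, 11 gained it and 18 changed sign. Most alternatives leave out 1 library. In a comparison of 2 groups, most left-out libraries lie outside the groups compared and change the value little. The 798 are therefore no measure of how firm single calls are. The number of HSF genes called at 2-fold in Col-0 was 1, and 2 (with HSFA1E) with no filter and with the compared libraries alone, and 1 to 2 with libraries left out. In pifQ it was 1, and 0 to 2 with libraries left out. The number past the FDR in hec1hec2 was 4, and 2 to 4 with libraries left out, with 2 without hec1hec2 28°C replicate 3. For hec1hec2 against Col-0 at 22°C it was 1, and 0 to 1. The number of chaperone genes past the FDR in pifQ was 10, and 6 with the compared libraries alone. The cause was not tested, except that fewer libraries enter these fits.

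After a sign change the FDR was 0.476 or more. HSFA1D in Col-0 was −0.0030 with RLE normalization, −0.0043 with DESeq2, −0.0075 with no filter, −0.0060 with the compared libraries alone and −0.16 to 0.12 with libraries left out. With libraries left out, HSFA7A in Col-0 ran between −0.092 and 0.15, HSFA1D in hec1hec2 between −0.027 and 0.24, HSFB2B in hec1hec2 between −0.18 and 0.30, HSFA1D in pifQ between −0.34 and 0.23, HSFA1A in pifQ between −0.21 and 0.048, HSFA7A in hec1hec2 against Col-0 at 28°C between −0.15 and 0.088, and HSFA7A in pifQ against Col-0 at 22°C between −0.018 and 0.13.

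With the replicate block, HSFB2B in pifQ passed the FDR (0.75, FDR 0.0131) and no other HSF gene changed its call. Over all genes the block gave 5239, 5612 and 4975 calls past the FDR in pifQ, hec1hec2 and Col-0, against 4952, 5286 and 4704 without it. All 6 libraries correlated best with their own number in 3 of 7 contrasts.

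Depth limits HSFA2, HSFA1E and HSFA1A, with at most 9, 25 and 26 counts a library, most.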
